A study of Mus musculus with 8 samples.

Results

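The genes described here encode the machinery that carries new proteins into the endoplasmic reticulum (ER), folds them there and responds when folding falls behind. They were chosen as a list of 42 gene symbols that covers the signal recognition particle, the translocon, signal peptidase, the oligosaccharyltransferase, ER chaperones, protein disulfide isomerases, ER-associated degradation and stress transcription factors. The deposited table of 10412 genes holds 41 of the 42, and Sec61g was not analysed here. The libraries were made from cells of popliteal lymph nodes of C57BL/6 chimeric mice, 16 weeks old and 8 weeks after transplant, sorted on CD45, CD11c and MHC-II and labelled as classical dendritic cells (DCs) at rest and as DCs after activation. Activated mice had received 10 µg of an antibody against CD40, a receptor on antigen-presenting cells, into the footpad, and resting mice no treatment. The 4 groups, of 2 libraries each, are activated cells of chimeras labelled ICAM-1/2 DKO/WT (called DKO), activated cells of WT/WT chimeras (called WT), resting DKO cells and resting WT cells. ICAM-1 and ICAM-2 are ligands of the integrin LFA-1. All groups, controls included, are chimeras, and the labels do not spell out how many cells of host origin each still held.

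A protein destined for secretion or for a membrane is recognised by the signal recognition particle as it leaves the ribosome and passes into the ER through the Sec61 channel. Signal peptidase removes its leader, the oligosaccharyltransferase attaches sugar chains, and chaperones, lectins and disulfide isomerases fold it, while proteins that fail are sent back to the cytosol for degradation. When unfolded protein builds up, the unfolded protein response acts through the sensors IRE1, PERK and ATF6. Its transcription factors XBP1, ATF6 and ATF4 raise the genes of chaperones and of degradation. In antigen-presenting cells this machinery also makes MHC molecules and secreted proteins, and XBP1 is known for its roles in plasma cells and in DCs.

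Libraries held 401984 to 1294777 unique molecular identifiers (UMIs, each standing for a captured mRNA molecule) and 9801 to 10369 detected genes. DKO resting replicate 1 and DKO activated replicate 2 were the shallowest. Icam1 checked the labels, with 38.2 and 35.5 CPM (UMIs scaled to library size by TMM) in DKO activated libraries, 403 and 428 CPM in WT activated libraries, 9.40 and 13.5 CPM in DKO resting libraries and 166 and 122 CPM in WT resting libraries. Icam2 did not set the labels apart, with 109 and 92.2 CPM in DKO activated libraries, 65.9 and 93.4 CPM in WT activated libraries, 228 and 134 CPM in DKO resting libraries and 197 and 217 CPM in WT resting libraries (DKO over WT, log2 0.06 ± 0.19; edgeR adjusted p = 0.995). No label says whether its 3′ tags lie outside the deleted part, and DKO below means the libraries so labelled. The labelled cell type was only partly borne out by its markers. Flt3 and Zbtb46, which define conventional DCs, stayed at 3.97 to 30.6 CPM and 0 to 10.2 CPM over the 8 libraries, and Cd209a was at 0 in each activated library. Other genes of the same list were higher, with H2-Aa at 10004 to 13904 CPM, Cst3 at 857 to 1572 CPM, Wdfy4 at 134 to 286 CPM, Ccr7 at 101 to 292 CPM and Fscn1 at 64.9 to 267 CPM. H2-Aa, of MHC class II, and Ccr7 are also made by B cells. The B cell gene Cd79b was abundant, at 2393 to 4349 CPM. The samples are therefore called by their labels and sort, as lymph node cells, with no claim on which cell type carried the mRNA.

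Activation was accompanied by higher levels of many ER genes, mostly chaperones, disulfide isomerases and translocon-associated proteins. Averaged over both genotypes, 13 of 40 tested members rose, 2 fell and 25 were not called (edgeR quasi-likelihood test, Benjamini-Hochberg adjusted p under 0.05 over all 8616 genes tested). Of all tested genes, 16.3% were called higher and 13.4% lower in the same comparison. The members' median log2 fold change was 0.32, against −0.01 over all genes. Levels summed over all members were 7847 and 9214 CPM in DKO activated libraries, 8424 and 8709 CPM in WT activated libraries, 6253 and 6386 CPM in DKO resting libraries, and 6200 and 6695 CPM in WT resting libraries. Both activated pairs lay above both resting pairs. Scaling by total UMIs in place of TMM shifted the median of all genes to −0.22, and the split of members became 11 higher and 5 lower. The shares of all genes called under that scaling are not given here, so this split has no background beside it. In these bulk samples, fewer cells of a type and less RNA per cell cannot be told apart.

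**Figure D1:**
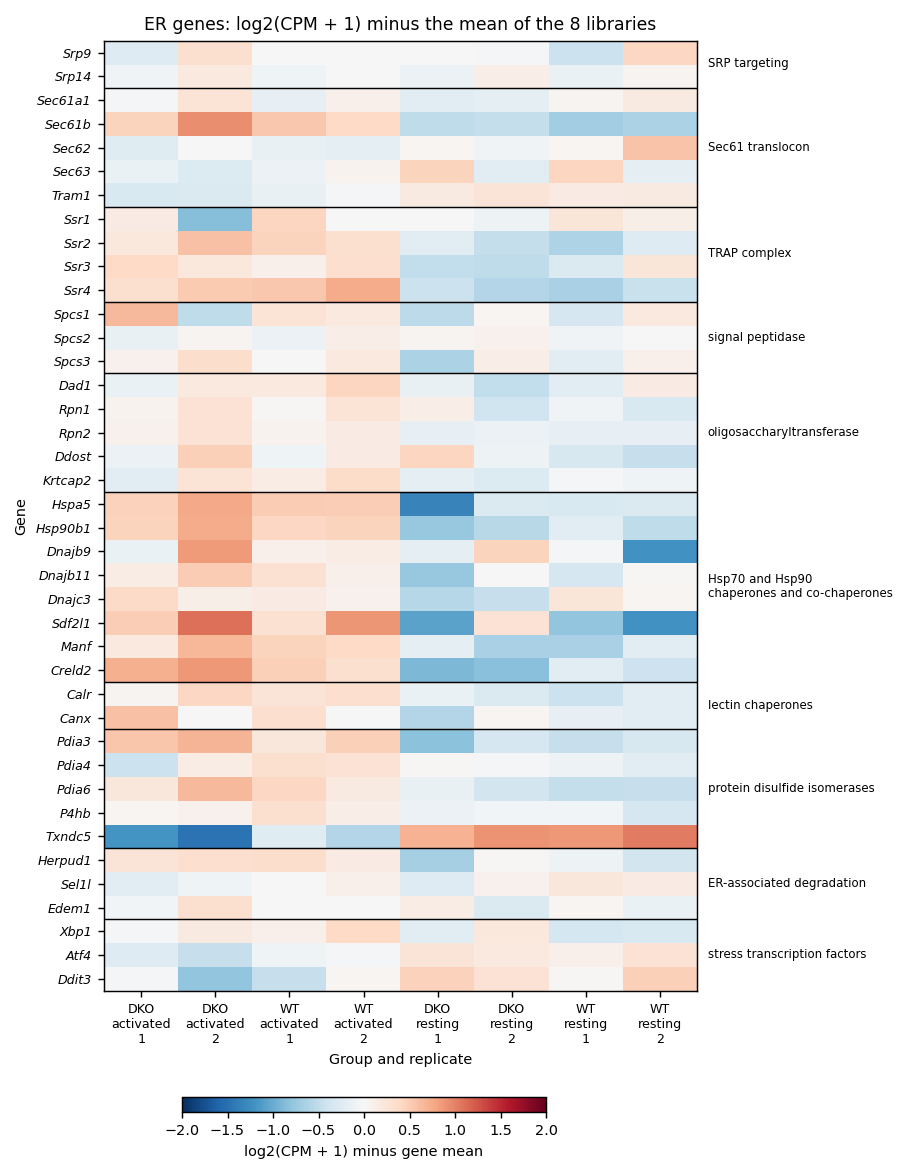
Colour gives the log2(CPM + 1) of each of the 40 tested genes minus its mean over the 8 libraries. Rows are genes grouped by role and columns are libraries, with activated libraries left of resting ones and DKO left of WT. Chaperone rows are mostly red in activated libraries, Txndc5 is blue there, and DKO resting replicate 1 is the bluest column for Hspa5.

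Among genes of targeting and translocation, single subunits rose while most of their partners were not called. Sec61b, the small beta subunit of the Sec61 channel (GRCm38, chr4:47474658-47483242), had 475 and 669 CPM in DKO activated libraries and 508 and 460 CPM in WT activated libraries, against 247 and 253 CPM in DKO resting libraries and 215 and 226 CPM in WT resting libraries. All 4 activated libraries lay above all 4 resting ones. Sec61b rose by 1.16 ± 0.14 on the log2 scale (SE; edgeR adjusted p = 2.63e-07), which is 2.23-fold. It was called under each of the 15 alternatives tried for this average.

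No other translocon gene was called. Tram1, a membrane protein that helps nascent chains enter the ER membrane, had 95.4 and 96.9 CPM in DKO activated libraries and 106 and 115 CPM in WT activated libraries, against 134 and 141 CPM in DKO resting libraries and 133 and 134 CPM in WT resting libraries. Its groups did not overlap, but the log2 fold change of −0.40 ± 0.17 was not called (edgeR adjusted p = 0.0768), except with total-UMI scaling. Sec61a1, the pore-forming subunit, had a log2 fold change of 0.08. Sec62 and Sec63, which assist translocation, had −0.30 and −0.25. Srp9 and Srp14, the Alu-domain proteins of the signal recognition particle, stood at 96.7 to 144 CPM and 243 to 296 CPM in activated libraries, against 85.4 to 154 CPM and 237 to 284 CPM in resting ones. Activated and resting libraries overlapped for both. Their log2 fold changes were 0.01 each, with 95% intervals of −0.38 to 0.41 for Srp9 and −0.29 to 0.31 for Srp14, and both changed sign under several alternatives.

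The translocon-associated protein (TRAP) complex, which sits beside Sec61 and helps some signal sequences engage it, had 3 of 4 subunits called higher and none called lower. Ssr4, its delta subunit on chromosome X, had 410 and 468 CPM in DKO activated libraries and 473 and 546 CPM in WT activated libraries, against 242 and 217 CPM in DKO resting libraries and 207 and 240 CPM in WT resting libraries. Ssr2, the beta subunit, had 224 and 293 CPM in DKO activated libraries and 266 and 243 CPM in WT activated libraries, against 167 and 139 CPM in DKO resting libraries and 126 and 163 CPM in WT resting libraries. Neither gene's activated and resting libraries overlapped. Ssr4 rose by 1.06 ± 0.14 (log2; edgeR adjusted p = 7.85e-07) and Ssr2 by 0.79 ± 0.16 (edgeR adjusted p = 3.07e-04). Ssr3, the gamma subunit, rose by 0.54 ± 0.21 with an edgeR adjusted p of 0.0481, a call lost under 13 of 15 alternatives, among them the removal of any library other than WT resting replicate 2. Ssr1, the alpha subunit, had a log2 fold change of −0.04.

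Signal peptidase and the oligosaccharyltransferase gave no calls in the edgeR fit over all 8 libraries. Spcs1, a signal peptidase subunit, ranged over 52.0 to 118 CPM in activated libraries and 51.7 to 86.1 CPM in resting ones, and Spcs3, another subunit, over 62.0 to 80.4 CPM and 39.9 to 68.6 CPM. Both overlapped between activated and resting libraries, with log2 fold changes of 0.37 and 0.25 (edgeR adjusted p = 0.232 and 0.419). All 5 oligosaccharyltransferase subunits had positive log2 fold changes, with a median of 0.30, and none passed the test. Dad1 had 344 and 433 CPM in DKO activated libraries and 432 and 509 CPM in WT activated libraries, against 341 and 268 CPM in DKO resting libraries and 325 and 425 CPM in WT resting libraries, which overlap. It was called higher in 2 of 15 alternatives. Rpn2 had 207 and 239 CPM in DKO activated libraries and 205 and 218 CPM in WT activated libraries, against 174 and 179 CPM in DKO resting libraries and 174 and 175 CPM in WT resting libraries. The groups of Rpn2 did not overlap, yet its log2 fold change of 0.30 ± 0.15 had an edgeR adjusted p of 0.130.

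Promoter sequences are shown for the members whose start regions carry the ER stress response element (ERSE), because many of these genes are chaperones described next. The ERSE joins a CCAAT box and a CCACG box across 9 bases and is known as a site for ATF6 and XBP1 with NF-Y. RefSeq (GRCm38.p6) windows of 300 bases, 250 before to 50 after a start site, were at hand for 35 of the 41 members. A search for CCAAT and CCACG parted by exactly 9 bases, on both strands, found 7 of these 35 members. It found 0.137% of all 27025 genes with a window, or 0.119% of all 32851 windows. Because the members were picked as ER folding and stress genes, this is a description and not a test. A related element, ERSE-II, was searched as ATTGG and CCACG with any 1 base between them on both strands. It was found in Dnajb11, Herpud1 and Krtcap2, and in 0.0444% of all genes with a window. Each site is printed 5′ to 3′ as the motif reads, with the matched boxes in capitals.
Hspa5 (chr2:34772025-34772043, plus strand): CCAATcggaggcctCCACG
Hsp90b1 (chr10:86705638-86705656, minus strand): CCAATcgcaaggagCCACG
Hsp90b1 (chr10:86705533-86705551, plus strand): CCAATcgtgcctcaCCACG
Creld2 (chr15:88819520-88819538, minus strand): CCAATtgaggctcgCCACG
Calr (chr8:84847075-84847093, plus strand): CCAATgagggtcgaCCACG
Canx (chr11:50325800-50325818, minus strand): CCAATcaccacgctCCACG
Pdia6 (chr12:17266491-17266509, plus strand): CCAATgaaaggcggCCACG
Dnajc3 (chr14:118937827-118937845, plus strand): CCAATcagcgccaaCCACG
Herpud1, ERSE-II (chr8:94386377-94386387, plus strand): ATTGGgCCACG
Dnajb11, ERSE-II (chr16:22857852-22857862, plus strand): ATTGGcCCACG
Krtcap2, ERSE-II (chr3:89246490-89246500, plus strand): ATTGGaCCACG

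Upstream sequence is given in full for a gene with each element, to show the spacing to the start site. The 250 bases before the RefSeq start of Creld2 (chr15:88819396-88819645, plus strand) hold the ERSE on the opposite strand, so its capitals read as the reverse complement, from base −126 to base −108.
Creld2: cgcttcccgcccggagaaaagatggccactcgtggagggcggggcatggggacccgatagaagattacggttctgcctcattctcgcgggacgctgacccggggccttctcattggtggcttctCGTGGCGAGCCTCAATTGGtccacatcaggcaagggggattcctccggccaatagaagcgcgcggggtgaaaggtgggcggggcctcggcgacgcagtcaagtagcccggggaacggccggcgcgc
In Herpud1 (chr8:94386179-94386428, plus strand) the ERSE-II lies from base −52 to base −42.
Herpud1: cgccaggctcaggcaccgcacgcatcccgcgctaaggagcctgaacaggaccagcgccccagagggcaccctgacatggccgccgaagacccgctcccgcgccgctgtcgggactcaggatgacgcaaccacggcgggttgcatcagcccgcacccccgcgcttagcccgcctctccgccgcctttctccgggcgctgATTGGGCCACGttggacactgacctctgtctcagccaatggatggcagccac
The nearest ERSE to a start among the members was that of Hspa5, from base −65 to base −47.

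Of the chaperones of the Hsp70 and Hsp90 families and their partners, 5 of 8 tested genes were called higher and none lower. Of all tested genes, 16.3% were called higher and 13.4% lower. Role groups were drawn up with earlier results known, so their shares are not ranked. Hspa5, the ER Hsp70 known as BiP (chr2:34771970-34777547), had 565 and 695 CPM in DKO activated libraries and 585 and 578 CPM in WT activated libraries, against 162 and 336 CPM in DKO resting libraries and 333 and 336 CPM in WT resting libraries. Every activated library lay above every resting one, and DKO resting replicate 1 lay far below the other 3 resting libraries. Hspa5 rose by 1.04 ± 0.16 (log2; edgeR adjusted p = 8.09e-06), or 2.06-fold. Hsp90b1, the ER Hsp90 known as GRP94, had 345 and 426 CPM in DKO activated libraries and 339 and 346 CPM in WT activated libraries, against 150 and 173 CPM in DKO resting libraries and 217 and 177 CPM in WT resting libraries. It rose by 1.01 ± 0.15 (edgeR adjusted p = 4.53e-06), without overlap between activated and resting libraries.

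Smaller partners of these chaperones rose as well. Creld2, an ER-resident protein with disulfide isomerase activity that is induced by ER stress, had 102 and 113 CPM in DKO activated libraries and 86.6 and 77.6 CPM in WT activated libraries, against 32.9 and 34.3 CPM in DKO resting libraries and 53.5 and 46.4 CPM in WT resting libraries. Manf, a secreted ER stress factor that binds BiP, had 263 and 362 CPM in DKO activated libraries and 311 and 303 CPM in WT activated libraries, against 202 and 146 CPM in DKO resting libraries and 147 and 195 CPM in WT resting libraries. Sdf2l1, a partner of the J protein Dnajb11, had 36.9 and 56.7 CPM in DKO activated libraries and 32.3 and 48.5 CPM in WT activated libraries, against 11.7 and 31.9 CPM in DKO resting libraries and 14.6 and 10.6 CPM in WT resting libraries. Activated libraries lay above resting ones for each, although by less than 1 CPM for Sdf2l1. Counts of Sdf2l1 were small, at 5 to 26 UMIs in resting libraries and 24 to 40 UMIs in activated ones. Log2 increases were 1.18 ± 0.21 for Creld2 (edgeR adjusted p = 7.96e-05), 0.86 ± 0.16 for Manf (1.30e-04) and 1.28 ± 0.32 for Sdf2l1 (0.00292).

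The J proteins Dnajb11, Dnajc3 and Dnajb9, which hand clients to BiP, had log2 fold changes of 0.48, 0.38 and 0.36 and were not called (edgeR adjusted p = 0.0550, 0.183 and 0.389). Dnajb11 did not overlap between activated libraries, at 112 to 149 CPM, and resting libraries, at 61.1 to 106 CPM. It was called higher in 3 of 15 alternatives. Hyou1, the Hsp70-related nucleotide exchange factor of BiP, had at most 9 UMIs in a library and was not tested. Summed over the 9 members of this group, levels were 1546 and 1936 CPM in DKO activated libraries, 1594 and 1581 CPM in WT activated libraries, 696 and 921 CPM in DKO resting libraries and 958 and 951 CPM in WT resting libraries.

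Of the lectin chaperones, which hold glycoproteins until they fold, Calr rose and Canx was not called. Calr (calreticulin) had 825 and 1059 CPM in DKO activated libraries and 947 and 1002 CPM in WT activated libraries, against 726 and 651 CPM in DKO resting libraries and 589 and 685 CPM in WT resting libraries. Its increase of 0.53 ± 0.13 (log2; edgeR adjusted p = 0.00218) came without overlap between activated and resting libraries. Canx (calnexin), its membrane-bound relative, had 164 and 109 CPM in DKO activated libraries and 138 and 109 CPM in WT activated libraries, against 72.8 and 113 CPM in DKO resting libraries and 97.9 and 94.0 CPM in WT resting libraries. Those libraries overlapped, and its log2 fold change was 0.45 ± 0.19 (edgeR adjusted p = 0.0687). Canx was called higher in 2 of 15 alternatives.

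Protein disulfide isomerases moved in opposite directions. Pdia3 (ERp57), which works with calreticulin and in the loading of MHC class I, had 276 and 300 CPM in DKO activated libraries and 221 and 263 CPM in WT activated libraries, against 106 and 148 CPM in DKO resting libraries and 137 and 150 CPM in WT resting libraries. It rose by 0.95 ± 0.16 (log2; edgeR adjusted p = 2.50e-05). Pdia6, an isomerase that associates with BiP, stood at 281 to 392 CPM in activated libraries and 179 to 226 CPM in resting ones, and rose by 0.74 ± 0.15 (edgeR adjusted p = 3.60e-04). Both were without overlap between activated and resting libraries. P4hb (PDI itself) and Pdia4 had log2 fold changes of 0.27 and 0.15 that were not called.

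Txndc5 (ERp46; chr13:38500079-38528824), an isomerase that is abundant in plasma cells, went the other way. It had 20.4 and 16.6 CPM in DKO activated libraries and 40.1 and 31.5 CPM in WT activated libraries, against 77.5 and 89.5 CPM in DKO resting libraries and 87.5 and 99.3 CPM in WT resting libraries. No activated library reached the lowest resting one. It fell by 1.76 ± 0.24 on the log2 scale (edgeR adjusted p = 9.79e-07) and was called under each of the 15 alternatives. Beside it, 2 of 6 tested plasma cell markers fell and 2 rose. Mzb1, a chaperone partner of B cells and plasma cells, fell by 0.73 ± 0.16 and Sdc1 (CD138) by 1.76 ± 0.44 (edgeR adjusted p = 6.23e-04 and 0.00295). Sdc1 stood at 4.85 to 18.9 CPM in activated libraries, from only 4 to 8 UMIs, and at 19.4 to 42.3 CPM in resting ones. The size of its fall is therefore uncertain. Slamf7 and Jchain were called higher, Jchain with values from 0 to 191 CPM that differed widely within groups. The summed level of the 8 plasma cell markers in the table was 366 and 494 CPM in DKO activated libraries, 615 and 546 CPM in WT activated libraries, 508 and 452 CPM in DKO resting libraries and 745 and 514 CPM in WT resting libraries. Their part in the Txndc5 result was not tested.

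Of the genes of ER-associated degradation, Herpud1 was called and the others were not. Herpud1, a scaffold of the membrane complex that retrotranslocates unfolded proteins, had 225 and 236 CPM in DKO activated libraries and 239 and 211 CPM in WT activated libraries, against 117 and 190 CPM in DKO resting libraries and 175 and 146 CPM in WT resting libraries. Activated libraries lay above resting ones, and Herpud1 rose by 0.51 ± 0.16 (log2; edgeR adjusted p = 0.0174). Its call was lost when WT resting replicate 2 (edgeR adjusted p = 0.0879), DKO resting replicate 1 (0.0999) or, separately, WT activated replicate 1 (0.0794) was removed. It was also lost with the 2 shallowest libraries removed together (0.121) and with total-UMI scaling (0.166). Sel1l, the adaptor of the ubiquitin ligase Syvn1, overlapped at 62.4 to 78.8 CPM in activated libraries and 61.1 to 85.4 CPM in resting ones. Sel1l and Edem1, a lectin-like protein that directs misfolded glycoproteins to degradation, had log2 fold changes of −0.13 and 0.12.

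In the edgeR fit over all 8 libraries, none of the stress transcription factors had its mRNA called higher. Atf4, the factor made when PERK or a related kinase slows translation, had 439 and 378 CPM in DKO activated libraries and 492 and 508 CPM in WT activated libraries, against 625 and 602 CPM in DKO resting libraries and 563 and 641 CPM in WT resting libraries. All activated libraries lay below all resting ones. Atf4 fell by 0.42 ± 0.13 (log2; edgeR adjusted p = 0.0144), a call lost without WT activated replicate 1 (0.0633). Ddit3 (CHOP), a target of ATF4, had 68.7 and 40.2 CPM in DKO activated libraries and 50.4 and 71.5 CPM in WT activated libraries, against 96.3 and 85.8 CPM in DKO resting libraries and 70.8 and 98.0 CPM in WT resting libraries. Those groups overlapped by a single value, and its log2 fold change of −0.56 ± 0.22 missed the threshold (edgeR adjusted p = 0.0538). Ddit3 was called lower in 4 of 15 alternatives, among them total-UMI scaling (edgeR adjusted p = 0.00945) and the 10 CPM filter (0.0499).

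Xbp1, whose mRNA is spliced by IRE1 into the active form, had 179 and 206 CPM in DKO activated libraries and 196 and 240 CPM in WT activated libraries, against 157 and 211 CPM in DKO resting libraries and 142 and 147 CPM in WT resting libraries. In WT the pairs were apart, and in DKO they overlapped. Its average log2 fold change of 0.31 ± 0.16 was not called (edgeR adjusted p = 0.138). In WT alone its log2 fold change of 0.59 ± 0.22 had an edgeR adjusted p of 0.0654, and it was called higher in 5 of 16 alternatives, among them limma-voom (adjusted p = 0.0243) and the 4 WT libraries on their own (edgeR adjusted p = 0.0308). Gene counts do not tell the spliced form of Xbp1 from the unspliced one, and the activity of ATF4 and XBP1 proteins was not measured.

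**Figure D2:**
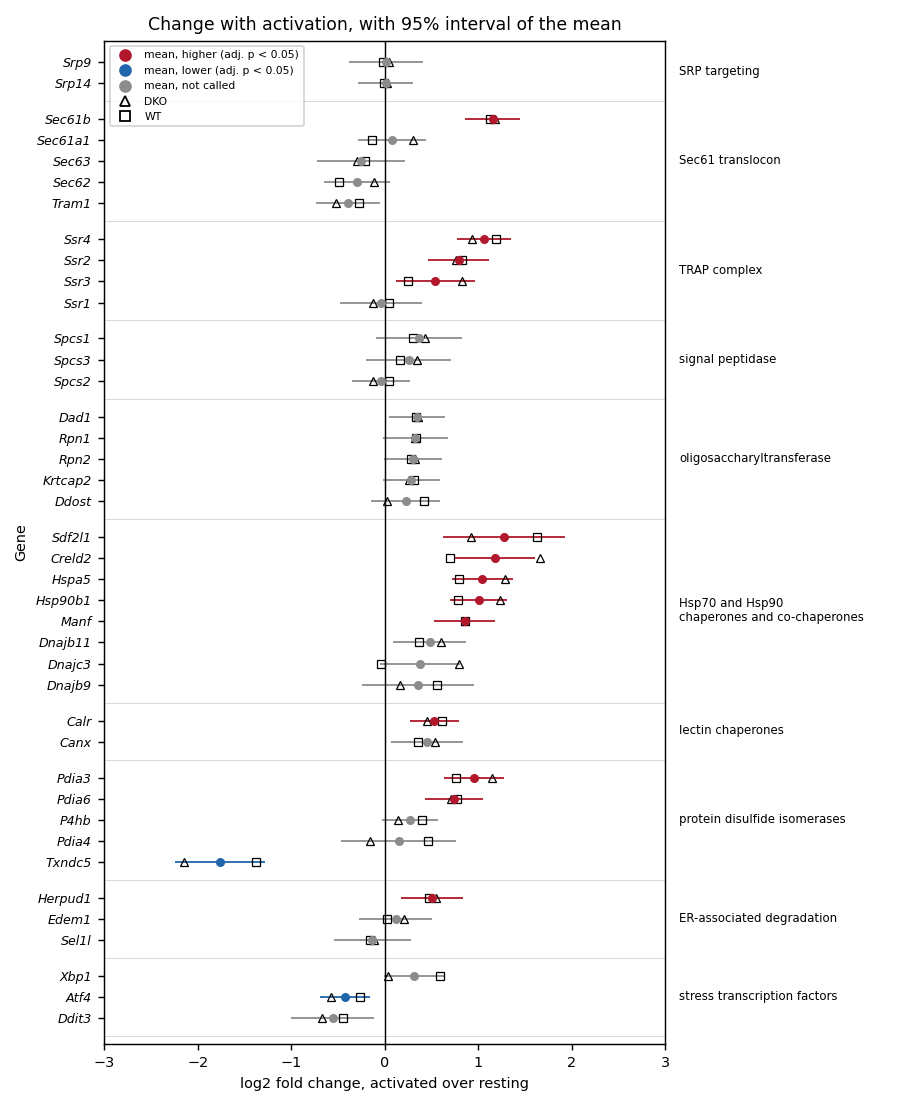
The horizontal axis is the log2 fold change of activated over resting libraries for each of the 40 tested genes, grouped by role. Filled circles with lines are the average of both genotypes and its 95% interval (red higher, blue lower, grey not called), triangles are DKO and squares WT. Changes run from −1.76 for Txndc5 to 1.28 for Sdf2l1, a gene with small counts.

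**Figure D3:**
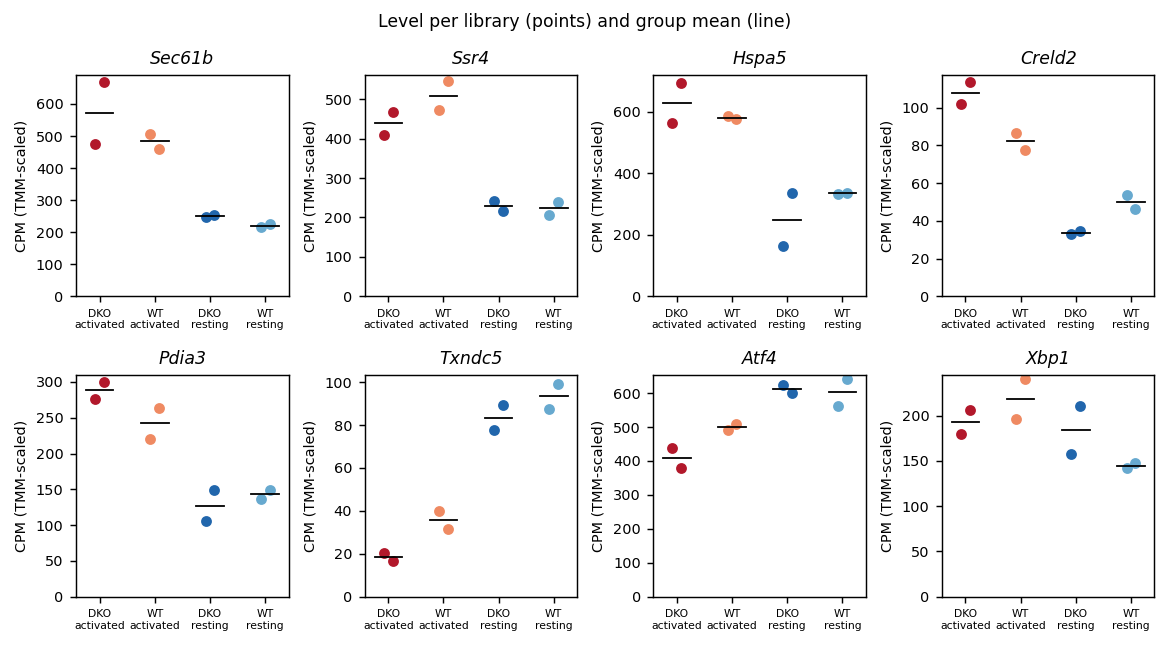
TMM-scaled CPM of 8 genes, each panel with its own axis from 0. Points are libraries and lines the mean of the 2 libraries of a group. Sec61b, Ssr4, Hspa5, Creld2 and Pdia3 are higher in each activated library, Txndc5 and Atf4 lower, and Xbp1 overlaps.

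The sites printed above can be set beside these changes as a description. Of the 7 members with an ERSE, 5 rose (Hspa5, Hsp90b1, Creld2, Calr and Pdia6) and Canx and Dnajc3 were not called. Of the 28 members with a window and no ERSE, 6 rose and 2 fell. Among the 6696 tested genes with a window, 16.2% were called higher. Outside the list, 30 genes held an ERSE, of which 5 were tested. Derl3 was called higher, but at 0 to 21.3 CPM its fold change cannot be read. Syvn1 and Pan2 were called lower, Syvn1 in 8 of 15 alternatives, and Hnrnpa3 and Adcy3 were not called. Of the ERSE-II members, Herpud1 rose, and Dnajb11 and Krtcap2 were not called. The unfolded protein response element, searched as TGACGTGG on both strands, was in a window of Txndc5, the member that fell most, and in 0.676% of all windows. An ATF4 element, searched as TGATGNAAN on both strands, was in windows of Herpud1 and Txndc5 and in 3.95% of all windows. In Txndc5 these elements lay in separate windows of different start sites. The window with the unfolded protein response element was chr13:38527865-38528164, inside the gene as GENCODE gives it. That with the ATF4 element was chr13:38528775-38529074. Some of the start sites that RefSeq and GENCODE vM21 give differ, so a window need not be the start used in these cells.

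Within each genotype, activation gave like counts of calls. In DKO, 9 of 40 members rose and 2 fell, with 9.02% and 6.33% of all tested genes called in those directions and a member median of 0.32. In WT, 10 rose and 1 fell, with 8.44% and 5.92% of all genes and a median of 0.33. The members Hsp90b1, Hspa5, Manf, Pdia3, Pdia6, Sec61b, Ssr2 and Ssr4 were called higher in both genotypes, and Txndc5 lower in both. With total-UMI scaling, Hsp90b1, Hspa5, Pdia3, Pdia6 and Ssr2 lost the WT call, and Pdia6 and Ssr2 the DKO call (edgeR adjusted p = 0.0519 to 0.0888). Pdia6 and Ssr2 also lost the DKO call with DESeq2 (adjusted p = 0.0528 and 0.0587). Library removals also cost calls. In WT, Hsp90b1, Hspa5, Manf, Pdia3, Pdia6, Ssr2 and Txndc5 each lost the call when some single WT library was left out. In DKO, Manf, Pdia6 and Ssr2 lost it without DKO resting replicate 2 and, separately, without DKO activated replicate 2. Creld2 rose and Atf4 fell in DKO without a call in WT, and Calr and Sdf2l1 rose in WT without a call in DKO. Of these, the Creld2 call in DKO was made in all 16 alternatives, whereas those of Calr and Sdf2l1 in WT were each made in 12. The DKO call of Atf4 (edgeR adjusted p = 0.0349) was lost in 7 of 16, among them the 4 DKO libraries on their own (0.0873) and the removal of DKO resting replicate 1 (0.0862), DKO resting replicate 2 (0.0683) or DKO activated replicate 2 (0.180). In WT, Atf4 was called lower with total-UMI scaling (edgeR adjusted p = 0.0409), and Creld2 higher in 2 of 16 alternatives. In the authors' deposited table, 10 members had an adjusted p under 0.05 on activation in DKO (8 higher, 2 lower). In WT there were 11 (10 higher, 1 lower), and between genotypes 0 at rest or after activation. The share over all genes in those columns was not counted here, so these numbers have no background beside them.

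The counts within a genotype leaned on single libraries. Removing DKO activated replicate 2 left 7 of the 11 DKO calls in number. The 11 WT calls became 5 and 3 without WT activated replicates 1 and 2, and 4 and 6 without WT resting replicates 1 and 2. With total-UMI scaling the WT split became 4 higher and 3 lower, at a median over all genes of −0.26 in WT. Sec61b and Ssr4 were called in both genotypes under each of the 16 alternatives tried there. The WT call of Hspa5 was lost when any WT library was left out, at log2 fold changes of 0.77 to 0.80. Its DKO value of 1.29 ± 0.23 became 0.73 (edgeR adjusted p = 0.0516) with the 2 shallowest libraries removed.

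No member was called between genotypes. Over the average of both states, at rest and after activation, 0 of 40 members were called by edgeR, DESeq2 or limma-voom. Unadjusted p was under 0.05 for 1, 2 and 1 members with edgeR, for 0, 0 and 0 with DESeq2, and for 1, 1 and 0 with limma-voom. Of all genes, 0.209%, 0.162% and 0.174% were called. The unadjusted values under 0.05 belonged to Txndc5 in the average and after activation, and to Ddost and Dnajc3 at rest. After activation, Txndc5 had a log2 difference of DKO over WT of −0.91 ± 0.40 (95% interval −1.72 to −0.11; edgeR adjusted p = 0.958), with both DKO libraries below both WT libraries. For the 40 members, log2 differences ran from −0.53 to 0.51 in the average.

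The response to activation was also compared between genotypes directly, by the interaction. None of the 40 members was called by edgeR, DESeq2 or limma-voom (1, 0 and 1 with an unadjusted p under 0.05), and 0% of all genes were (0 of 8616, with 397 at an unadjusted p under 0.05). Creld2 came nearest. Its activation change was 1.66 ± 0.32 in DKO and 0.70 ± 0.28 in WT, a difference of 0.96 (95% interval 0.09 to 1.83; edgeR adjusted p = 0.997, the unadjusted value lying under 0.05). For Xbp1 the change was 0.03 ± 0.23 in DKO and 0.59 ± 0.22 in WT, a difference of −0.56 (95% interval −1.20 to 0.09). The intervals of Hspa5 (−0.15 to 1.15) and Txndc5 (−1.76 to 0.23) also leave room for sizeable differences, so that like responses are not shown.

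Further genes of the same pathways were taken from 6 lists, and their calls are to be read against the 16.3% of all tested genes called higher and 13.4% called lower. The share called higher was 10.0% for targeting and translocation, 18.2% for signal peptidase and glycosylation, 11.1% for folding, 7.41% for degradation, 16.7% for sensors and 44.4% for integrated stress response targets. The shares of the first 5 lists thus lay near or below that of all genes. Among 20 tested genes of targeting and translocation, Emc2, of the ER membrane protein complex, and Asna1, the ATPase that delivers tail-anchored proteins, rose by 0.71 ± 0.20 and 0.58 ± 0.18 (edgeR adjusted p = 0.00883 and 0.0127), and none fell. Among 22 genes of signal peptidase and glycosylation, 4 rose and none fell. The smallest adjusted p-values among them were those of the glucosyltransferase Alg8 (1.15 ± 0.31), the signal peptidase subunit Sec11a (0.49 ± 0.16) and the oligosaccharyltransferase subunit Ostc (0.49 ± 0.16). The median was 0.38 on the log2 scale.

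Of 27 tested folding genes outside the main list, 3 were higher and 4, or 14.8%, lower. Fkbp2, an ER prolyl isomerase, rose by 0.57 ± 0.17 (log2; edgeR adjusted p = 0.00980), and Prkcsh, the beta subunit of glucosidase II, by 0.45 ± 0.16. Serp1, which protects membrane proteins during ER stress, had 431 and 407 CPM in DKO activated libraries and 395 and 430 CPM in WT activated libraries, against 719 and 807 CPM in DKO resting libraries and 654 and 645 CPM in WT resting libraries. It fell by 0.76 ± 0.13 (edgeR adjusted p = 3.81e-05). Ero1lb, an oxidase of disulfide isomerases, fell by 0.99 ± 0.21 and Txndc11, an ER thioredoxin, by 0.70 ± 0.23.

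Degradation genes gave 2 of 27 higher and 2 lower, with Vcp, the ATPase that pulls proteins from the ER, up by 0.50 ± 0.17, and Syvn1, a ubiquitin ligase of the ER membrane, down by 0.38 ± 0.15. Derl3 was called higher at 0 to 21.3 CPM, a level too low for its fold change to be read. Of 12 stress sensors and their processing enzymes, 2 rose and 2 fell. Eif2ak3 (PERK) fell by 1.04 ± 0.31 (edgeR adjusted p = 0.0117) and Mbtps1, a protease that activates ATF6, by 0.59 ± 0.20. Eif2ak2 (PKR), the kinase activated by double-stranded RNA, rose by 1.24 ± 0.22 and Bak1, of the BCL-2 family, by 0.82 ± 0.22.

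Targets of the integrated stress response, the ATF4 branch, had 8 of 18 tested genes higher and none lower, with a median log2 fold change of 0.52, although Atf4 mRNA itself fell. The list held 31 symbols, of which 21 were in the deposited table. Wars1, Sars1 and Nars1 count among the absent symbols, but they are other names of Wars, Sars and Nars, which were present. Trib3, Asns, Chac1 and Slc7a11 were among those absent, and Sesn2, Atf3 and Slc7a5 did not pass the filter. Ddit3, a target of ATF4 given above with the members, was not on this list and had a log2 fold change of −0.56. Shmt2, a mitochondrial enzyme of serine and glycine metabolism, had 174 and 229 CPM in DKO activated libraries and 226 and 215 CPM in WT activated libraries, against 91.6 and 66.2 CPM in DKO resting libraries and 114 and 91.4 CPM in WT resting libraries. It rose by 1.23 ± 0.17 (edgeR adjusted p = 2.32e-06). Psat1, of serine synthesis, rose by 1.24 ± 0.24 and Wars, the tryptophanyl tRNA synthetase, by 0.67 ± 0.19. Enzymes of serine synthesis and tRNA synthetases are also regulated apart from this pathway. Of the 29 called genes in these 6 lists, Shmt2, Psat1, Serp1, Ero1lb and Eif2ak2 were called in all 15 alternative fits. Each of the others lost its call in at least 1 of them, often by the removal of a single library, and none of the 29 changed sign.

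**Figure D4:**
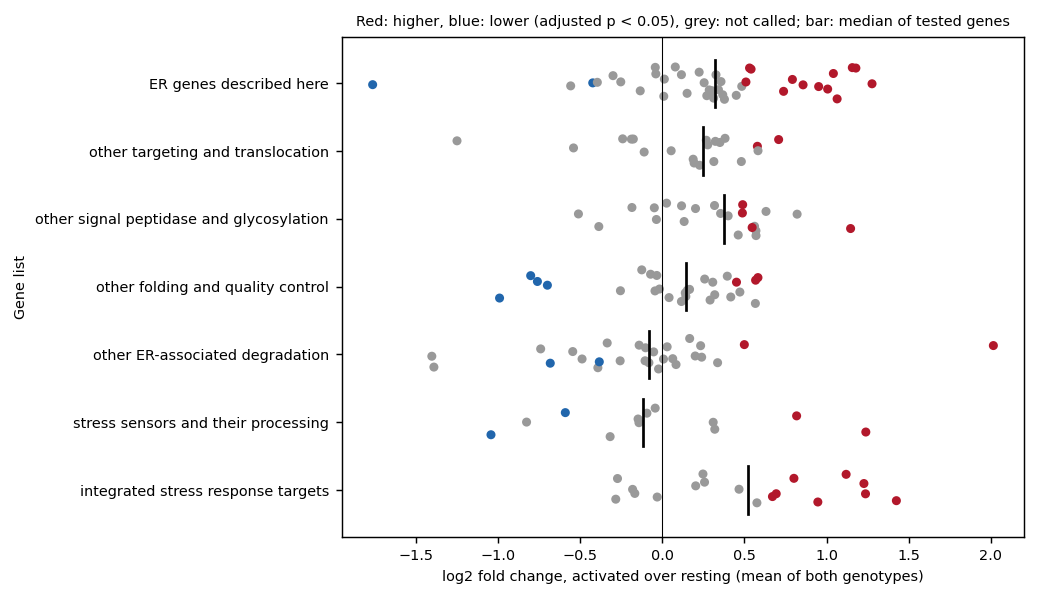
Each point is a tested gene, placed by its log2 fold change of activated over resting libraries (average of both genotypes) and spread vertically at random. Rows are the 40 ER genes and 6 lists of related genes, red is higher, blue lower and grey not called, and the bar is the median. Medians run from −0.12 for the sensors to 0.52 for the integrated stress response targets.

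Markers of other cells moved in the same comparison as the ER genes. All 12 tested monocyte and macrophage genes were called higher, with a summed level of 11728 and 15437 CPM in DKO activated libraries, 5828 and 5024 CPM in WT activated libraries, 2996 and 3022 CPM in DKO resting libraries and 2558 and 2238 CPM in WT resting libraries. Of 14 tested B cell genes, 4 rose and 8 fell, with sums of 8238 to 10215 CPM in activated libraries and 10261 to 12194 CPM in resting ones. Of 10 T cell genes, 1 rose and 6 fell, with sums of 950 to 1579 CPM in activated libraries and 1255 to 2369 CPM in resting ones. Of 8 NK cell genes, 3 rose and none fell, and of 6 plasmacytoid DC genes, 3 rose and 1 fell. The sums of the plasmacytoid list were 2288 to 3069 CPM in activated libraries and 1217 to 1765 CPM in resting ones. Most of that sum was Ly6d, at 1811 to 2211 CPM and 942 to 1485 CPM, followed by Bst2, at 416 to 986 CPM and 148 to 186 CPM. Siglech and Ccr9 stayed at 0 to 28.4 CPM and 0 to 31.5 CPM over the 8 libraries. Pacsin1 had 11.8 to 38.2 CPM in activated libraries and 29.1 to 77.5 CPM in resting ones. Of 11 tested conventional DC genes, 4 rose and 1 fell. Of 14 proliferation genes, 12 rose and none fell. Of 11 genes induced by tissue dissociation, 10 fell and none rose, and their sum was 641 to 800 CPM in activated libraries and 1242 to 2581 CPM in resting ones. The part of these cells and states in the changes of the ER genes was not tested.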

How the data were processed

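Bulk MARS-seq, a 3′ method with unique molecular identifiers, was run on 8 libraries. Per the submitters' processing notes, reads went through HTSeq and TopHat2 on mm10, after cutadapt 1.8.3 and bcl2fastq 2.17.1.14, and DESeq2 was used. How UMIs were collapsed, the strand setting and the annotation were not given in the sources used here. One deposited table lists 10412 genes. Its raw UMI counts, named in the file headers, were the input here. Its normalized counts (a signal, deposited by the authors) equalled count over size factor for 100% of values within 1e-6. Deposited log2 fold changes and the authors' adjusted p-values are quoted only as the authors' values, and the deposited score (Wald statistic) and regularized log2 values were not used. Every gene had 6 or more UMIs in some library.

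Counts were filtered by edgeR's filterByExpr, given TMM factors and modelled in edgeR 4.0.16 under R 4.3.3, with each of the 4 groups as a coefficient over 8 libraries. The quasi-likelihood F test was used, with Benjamini-Hochberg adjustment over 8616 genes. Called means an adjusted p under 0.05. SE is that of the log2 fold change, and intervals are 95%. A floor of 3 UMIs corresponds to 2.32 to 7.46 unscaled CPM, and covers counting error only. Nothing says whether libraries of a group came from separate animals, and p-values therefore reflect only how far these samples spread, which may be technical. Replicate numbers were given in accession order and the labels name no batch.

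Members and lists were chosen with earlier results of these data known. Values were given for Hspa5, Xbp1, Atf4, Ddit3, Txndc5, the 2 members of each role group with the smallest p and every member called lower. Up to 3 called genes in each direction were named per related list, and some genes are not reported here. Creld2, Manf, Sdf2l1, Pdia6 and other members outside that rule, and the marker genes, were chosen after their values were seen. Alternatives were DESeq2 1.42.0, its size factors, total-UMI scaling, no filter, 10 CPM in 2 libraries, limma-voom (3.58.1) with quality weights, the 4 libraries compared alone, and leaving out each library. Leaving out both libraries of lowest depth was added after seeing the data. The fit was tested on simulated data. GENCODE vM21 (GRCm38) matched 41 of 41 members. Of these, 6 overlap another gene of the table (Spcs1, Krtcap2, Hsp90b1, Manf, Pdia3 and Ddit3), and reads of such pairs may not be told apart where the strand was not used. Manf shares its strand with Rbm15b, so that strand would not part those reads. Promoter windows are from RefSeq, GRCm38.p6.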

Additional observations from a re-analysis of the deposited data

How the results depend on the processing

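Counts of members called on activation, averaged over genotypes, ran from 12 to 18 over single-library removals against 15, with 11 to 15 higher and 1 to 3 lower. Total-UMI scaling gave 5 lower in that average. In WT it gave 7 calls, of which 4 were higher and 3 lower. The median of all genes in the average was −0.22 with total-UMI scaling and −0.01 with TMM. Which scaling is nearer the truth was not tested. Over single-library removals, WT counts ran from 3 to 12 (3 to 11 higher, 0 to 1 lower) and DKO counts from 7 to 12 (6 to 10 higher, 1 to 2 lower). Without both libraries of lowest depth, DKO had 6 calls, 5 higher and 1 lower. On only the 4 libraries compared, 1 member was lower in DKO. Fewer samples entered those fits. For the alternatives, shares over all genes are not given here, so their member counts have no background beside them. Genotype and interaction counts were 0 in each alternative run. Mean summed levels under total-UMI scaling were 7891 CPM for activated WT cells, against 6737 CPM for resting DKO and 7001 CPM for resting WT cells, where TMM gave 8566, 6319 and 6447 CPM. Over all 40 members, the sign turned in at least 1 alternative for 9 changes in the average, 9 in WT and 14 in DKO, 0 of them called, and the cause was not tested. Those of the members named by rule follow. Xbp1 in DKO was −0.15 with total-UMI scaling, −0.25 without both libraries of lowest depth and from −0.17 to 0.27 over single-library removals. Spcs1 ran from −0.023 (without DKO activated replicate 1) to 0.57. Srp9 was −0.20 with total-UMI scaling, −0.0034 without a filter, −0.0036 with the 10 CPM filter, −0.13 without both shallow libraries and from −0.20 to 0.22 over removals. Srp14 was −0.20, −0.0068, −0.0074 and −0.12 in those 4 fits and from −0.067 to 0.076 over removals. Of the other values of named members under alternatives, 756 kept direction and side of the threshold, 75 lost a call and 18 gained one. No paired analysis was possible because the labels carry no replicate numbers that tie libraries together. Hyou1, at no more than 9 UMIs in a library, was too shallow to test.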
